A study of Rattus norvegicus with 10 samples.

Results

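The 1000 regions whose captured methylated DNA varied most between rats of the same group were picked out of 240243 eligible regions, in a hippocampal methylation map of 716492 regions. Eligible regions lay on autosomes, held at least 180 read tags summed over 9 rats and had no rat of these at 0 tags. The members were chosen by their tags alone, which were scaled to the total of each rat (CPM, tags scaled to a common library size). The mean log2(CPM + 0.5) of each group was then subtracted. The remaining sum of squares was divided by the median sum of squares of regions of like abundance (50 bins). This variation index is 1 in the middle of the eligible regions, and the 1000 regions with the highest index are the members described here. Sham rat 5 was not used for the choice. The spread of the members between the 9 rats is therefore given by their selection and is described without a test. Sham rat 5, positions, lengths and the difference between groups did not enter it. The spread within groups, which is part of what that difference is tested against, did.

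DNA came from the CA3 field and dentate gyrus of the left hippocampus (dorsal hippocampus in the labels) of Sprague-Dawley rats, an outbred stock, all adult males, 3 months after surgery. In 5 rats lateral fluid percussion, a pressure pulse onto the intact dura under pentobarbital and chloral hydrate anesthesia, served as a model of traumatic brain injury (TBI). The 5 sham rats went through the same anesthesia and craniectomy without the pulse. One library was made per rat from its own tissue, the TBI rats were not monitored by EEG, and the study's methods give a smaller number of control rats for this profiling than the labels do.

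In the adult brain most CpG sites outside CpG islands are methylated, and a methyl-binding protein pulls down DNA fragments that carry methylated CpGs, the more readily the more of them a fragment carries. Levels at one region can differ between animals of an outbred stock without any treatment, because sequence variants create or remove CpGs, delete or multiply a stretch of DNA, or act on methylation nearby. In mice some regions, among them certain retrovirus-like repeats, also differ between genetically identical animals.

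Tag counts follow the number of copies and the sequence of a region in each rat as well as its methylation, and in these counts they cannot be told apart. Nor can a change per cell be told apart from a change in the mix of cells of the tissue. Libraries held 13597924 to 21672940 tags. Over the eligible regions, the log2 value of sham rat 5 lay a median of 0.28 below the mean of the other sham rats, and the typical absolute deviation was 0.43. A region is in the matrix where peak calling separated at least 1 pair of libraries. All p-values below test a difference between TBI and sham rats, and none tests the spread between single rats itself. The spread used for each region is drawn in part from the other regions tested. Members were chosen for a wider spread than regions of like abundance, so their p-values can be too small.

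Members varied by several-fold between rats. The median SD within groups was 0.56 log2 units, compared with 0.24 over all eligible regions, and the highest of the 9 rats had a median of 3.81 times the CPM of the lowest, compared with 1.90 times. A ratio of at least 4 was found in 464 members (46.4%) and in 2.25% of the eligible regions. A ratio of at least 10 was found in 98 members (9.8%) and in 0.0795% of the eligible regions. The sum of squares was a median of 11.4 times its expectation from counting error alone in members, and 1.85 times in eligible regions. The value of the members is raised by their choice, which used this same sum of squares. Members held a median of 68.7 tags per rat.

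The variation index fell steeply over the list, from 120 at the first rank to 34.1 at rank 10, 9.52 at rank 100 and 5.63 at rank 500. An index of at least 10 was reached by 91 members and of at least 20 by 29. The lower end is not marked by a gap. The last 2 members both had an index of 4.67, the former with 0.294 to 3.44 CPM over all 10 rats (chromosome 3, 90468021 to 90470009) and the latter with 0.721 to 5.92 CPM (chromosome 8, 66181545 to 66182334). The first 2 regions left out also had 4.67. These had 9.26 to 24.3 CPM (chromosome 19, 53749978 to 53751617) and 3.61 to 14.5 CPM (chromosome 17, 10076736 to 10077821). In each of these regions sham rat 5, which the index did not use, was at 1 end of the range. Over the 9 rats used, the highest was 9.24 and 5.02 times the lowest in the last members, and 2.53 and 2.34 times in the regions left out.

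The most variable member lay on chromosome 9 from 110729163 to 110730034. Its sham rats 1 to 5 had 1.32, 25.6, 21.6, 1.36 and 18.3 CPM, and its TBI rats 1 to 5 had 16.6, 1.90, 1.66, 20.01 and 40.01 CPM. The rats fell into a low and a high set, with 2 sham and 2 TBI rats between 1.32 and 1.90 CPM and no rat between these and 16.6 CPM. Each group therefore held both levels, and the groups overlapped throughout. A second member of the same chromosome, from 110134863 to 110135718, had the same rats on its low side, with sham rats 1 and 4 at 0.735 and 0.632 CPM and TBI rats 2 and 3 at 0.590 and 0.877 CPM. Its other rats had between 1.58 and 3.12 CPM. The other 142 eligible regions between 110 and 111 Mb did not carry this pattern as a set, with median deviations from the 9-rat median between -0.30 and 0.03 in the 10 rats. Whether single ones among them carried it was not counted.

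In the members ranked 2, 3 and 8, 1 or 2 rats lay far below the rest. On chromosome 12 from 3454026 to 3455805, TBI rat 1 had 1 tag (0.0720 CPM) and sham rat 1 had 6 tags (0.441 CPM). The other 4 sham rats had between 4.95 and 12.4 CPM there, and the other 4 TBI rats between 4.80 and 13.2 CPM. Both groups thus held 1 rat near 0 and 4 rats well above it.

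On chromosome 20 from 19187276 to 19188269, TBI rat 4 had 2 tags (0.105 CPM), while the other TBI rats had 5.26, 6.95, 5.86 and 4.19 CPM. The sham rats had 13.2, 8.15, 5.62, 6.32 and 2.53 CPM. The same rat was lowest in the member of rank 3, on chromosome 13 from 108740949 to 108743004, with 69.9 CPM. Sham rats 1 to 5 had 1212, 989, 1460, 1787 and 537 CPM in that region, and TBI rats 1, 2, 3 and 5 had 566, 1402, 1433 and 1289 CPM. Its mean of 1134 CPM over the 9 rats was the highest of all eligible regions.

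**Figure D1:**
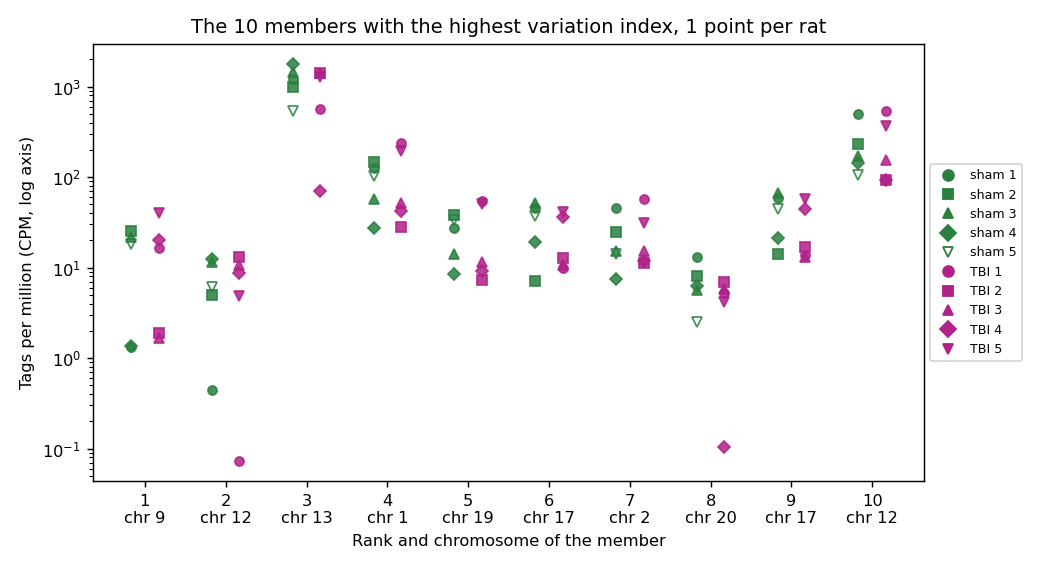
CPM of each rat (log axis, 1 point per rat, sham rats left and TBI rats right of each tick) in the 10 members with the highest variation index. In all 10 the groups overlap, which a choice by spread within groups favours. In the members of ranks 2 and 8 single rats lie far below the rest, at 0.0720 and 0.105 CPM.

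A neighbouring pair on chromosome 17 took ranks 6 and 9. From 85368858 to 85369631, sham rats 1 to 5 had 45.4, 7.18, 52.0, 18.96 and 37.1 CPM, and TBI rats 1 to 5 had 9.87, 12.7, 10.6, 36.2 and 41.2 CPM. From 85441676 to 85443357 the sham rats had 58.3, 14.2, 66.6, 21.1 and 44.5 CPM and the TBI rats 13.7, 16.7, 13.1, 44.8 and 56.9 CPM. Sham rats 1 and 3 were highest in both and sham rat 2 and TBI rats 1 to 3 were lowest, so that each group again spanned nearly the whole range. Another member of the same megabase, at rank 74 from 85943153 to 85944056, did not share this order, with 24.9 CPM in sham rat 1 and 58.9 CPM in sham rat 2.

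The remaining members among the first 10, of ranks 4, 5, 7 and 10, had the same 4 highest rats among the 9 used, TBI rats 1 and 5 and sham rats 1 and 2, although they lay on different chromosomes. On chromosome 12 from 44066031 to 44067219 (rank 10), sham rats 1 to 5 had 498.8, 233, 173, 142 and 106 CPM, and TBI rats 1 to 5 had 533, 92.6, 156, 92.0 and 366 CPM. On chromosome 1 from 56509279 to 56510381 (rank 4) the sham rats had 125, 145, 57.1, 27.5 and 104 CPM and the TBI rats 237, 28.0, 52.2, 41.8 and 194 CPM. The order among the 4 highest differed, and sham rat 5 came next after them in rank 4 and was among the lower rats in rank 10.

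When members were compared by the correlation of their log2 values over the 9 rats (Pearson r of at least 0.9), 19 members on 12 chromosomes were alike to ranks 4 or 10, and 14 of the 19 were among the first 50. This set was put together after its values were seen. Its median deviations from the 9-rat median were 1.62 in TBI rat 1, 1.35 in sham rat 1, 1.01 in TBI rat 5 and 0.53 in sham rat 2, and the other rats lay between -0.59 and 0.00. Sham rat 5, which played no part in the choice, had a median of -0.21 and lay above the 9-rat median in some of them and below it in others. Likeness over 9 rats is common in this matrix: a median member had 332.5 eligible regions and 6 members at this r, and the points share the depth of each library.

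**Figure D2:**
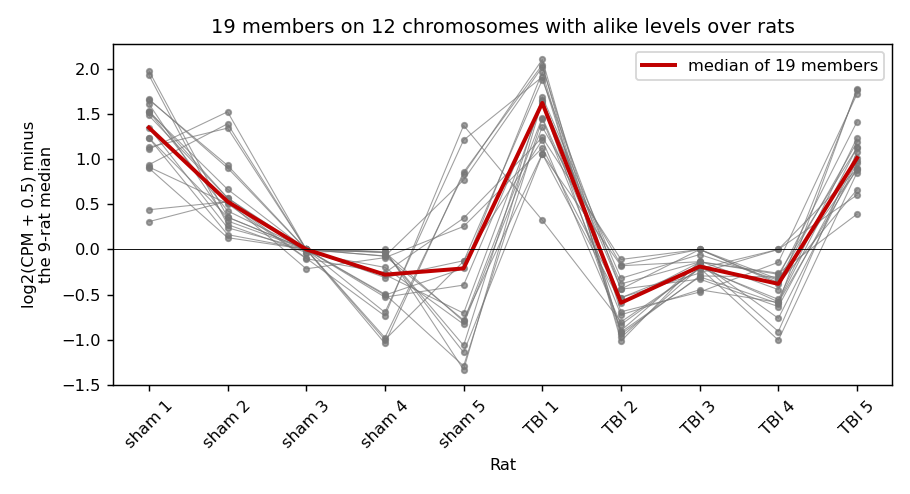
Deviation of log2(CPM + 0.5) from the 9-rat median (vertical axis) in each rat (horizontal axis), 1 grey line per member for the 19 members alike to ranks 4 and 10, with their median in red. TBI rat 1, sham rat 1 and TBI rat 5 stand highest, with medians of 1.62, 1.35 and 1.01, and sham rat 5 lies on both sides of 0.

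Several of these 19 held more tags than their length allows. Reads of 36 bases from 2 strands can start at a limited number of positions, so that a region without duplicate reads has an upper bound on its tags. The member of rank 20, on chromosome 7 from 101749393 to 101750355, had up to 30705 tags in 1 rat, whereas 1996 distinct read starts are possible. The member of rank 3 had up to 36758 tags with 4182 possible read starts. Such an excess occurred in 44 regions of the whole matrix, all 44 of them eligible, and 22 of the 44 (50.0%) were members, compared with 0.416% of all eligible regions. Among the first 10 members 3 were over this bound (ranks 3, 4 and 10), and 7 of the 19 alike members were. The study's methods describe the removal of duplicate reads, which is not seen in the counts of these regions. Whether duplicates shaped the spread between rats there was not tested.

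A smaller set of 5 members on 4 chromosomes was alike to rank 3, with TBI rat 4 a median of 2.65 log2 units below the 9-rat median. It included a member of chromosome 20 from 45385370 to 45386199, where TBI rat 4 had 0.210 CPM and the other 9 rats between 3.12 and 5.59 CPM. It also held 2 members of chromosome 1, from 75351330 to 75353016 and from 76063585 to 76064443. TBI rat 4 had 0.158 and 0.0525 CPM in these, and the other rats at least 2.665 and 1.399 CPM. Rank 1 had 13 alike members, which together with it lay on 11 chromosomes and were low in sham rats 1 and 4 and TBI rats 2 and 3. Over these 14, sham rat 5 had a median deviation of 0.87 and was thus on the side of the high rats.

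Most members did not separate rats as cleanly as the first ranks. The 9 values of each member were ordered and divided at their widest gap. The lower side held 1 rat in 428 members, 2 to 7 rats in 458 and all but 1 rat in 114. Over the eligible regions these forms made up 30.6%, 48.5% and 20.9%. The widest gap was at least 1 log2 unit in 94 members (9.4%) and in 0.103% of all eligible regions. It was at least 1.5 in 17 and at least 2 in 8. Among the first 100 members, 29 had 1 low rat, 64 had 2 to 7 low rats and 7 had 1 high rat.

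One library contributed more than any other. The rat farthest from its group mean was sham rat 2 in 474 members, below the mean in 387 of them. The same rat was farthest in 23.2% of the eligible regions. Each of the other 8 rats was farthest in 26 to 97 members, sham rat 4 being the next. This share of sham rat 2 was low among the first 100 members (16) and high in the 900 after them (458, or 50.9%). When libraries were first corrected for their trend against mean abundance by a loess curve, an alternative chosen after seeing the data, sham rat 2 was farthest in 368 of the 1000 regions then selected and in 21.1% of the eligible regions. A median of 42.5% of the sum of squares of a member came from its farthest rat, and in 309 members that rat gave more than 50%.

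**Figure D3:**
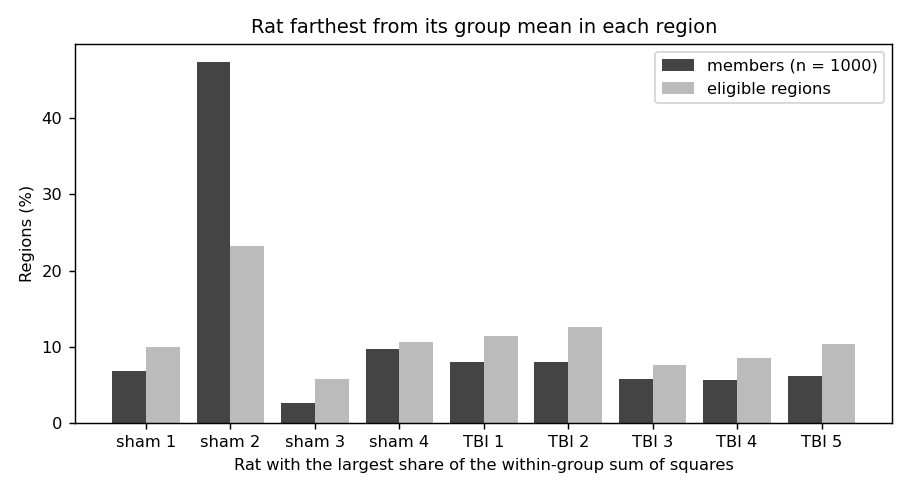
Percent of the 1000 members (dark bars) and of the 240243 eligible regions (light bars) in which each of the 9 rats lay farthest from its group mean. Sham rat 2 has the tallest bars, with 47.4% of members and 23.2% of eligible regions.

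In 229 members sham rat 2 alone lay below the gap. These members were spread over 20 chromosomes and were denser than the rest, with 118 tags per kb and rat, compared with 74.1 over all members and 47.0 over the eligible regions. Sham rat 2 lay a median of 1.02 log2 units below the 9-rat median in them, and sham rat 5 lay 0.88 below it although it took no part in the choice. Sham rat 4 lay 0.44 above. Loess correction reduced the deviation of sham rat 5 from the other sham rats in this set from -0.78 to -0.28. Abundance moved with this class, and its part in the low values of both libraries was not tested. The member of the class with the highest index was on chromosome 7 from 131807908 to 131808665, with 0.558 CPM (8 tags) in sham rat 2. Sham rats 1, 3, 4 and 5 had 1.54, 3.604, 4.52 and 3.18 CPM and TBI rats 1 to 5 had 2.23, 3.94, 4.89, 1.42 and 5.70 CPM.

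The next most frequent patterns were sham rat 2 and TBI rat 1 together low (61 members), sham rat 4 alone high (48) and sham rat 4 alone low (39). In the first 2 of these patterns sham rat 5 was low as well, by a median of 0.88 in each. In the members with sham rat 4 alone low it was high, by 0.88, beside sham rat 2 at 0.60. The leading member of the latter class lay on chromosome 1 from 254825566 to 254826665, with 5 tags (0.243 CPM) in sham rat 4, 2.06, 2.37, 4.37 and 2.10 CPM in sham rats 1, 2, 3 and 5, and 0.720 to 4.07 CPM in TBI rats. In 34 members sham rat 2 alone was high, by a median of 1.14, and sham rat 5 was high with it, by 1.20. The first of them, on chromosome 7 from 67429612 to 67429918, had 5.44 CPM (78 tags) in sham rat 2, 0.269 CPM in sham rat 5, the lowest of all rats there, 0.294 to 1.12 CPM in the other sham rats and 0.360 to 2.00 CPM in TBI rats. The leading members of these patterns were chosen after their values were seen.

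**Figure D4:**
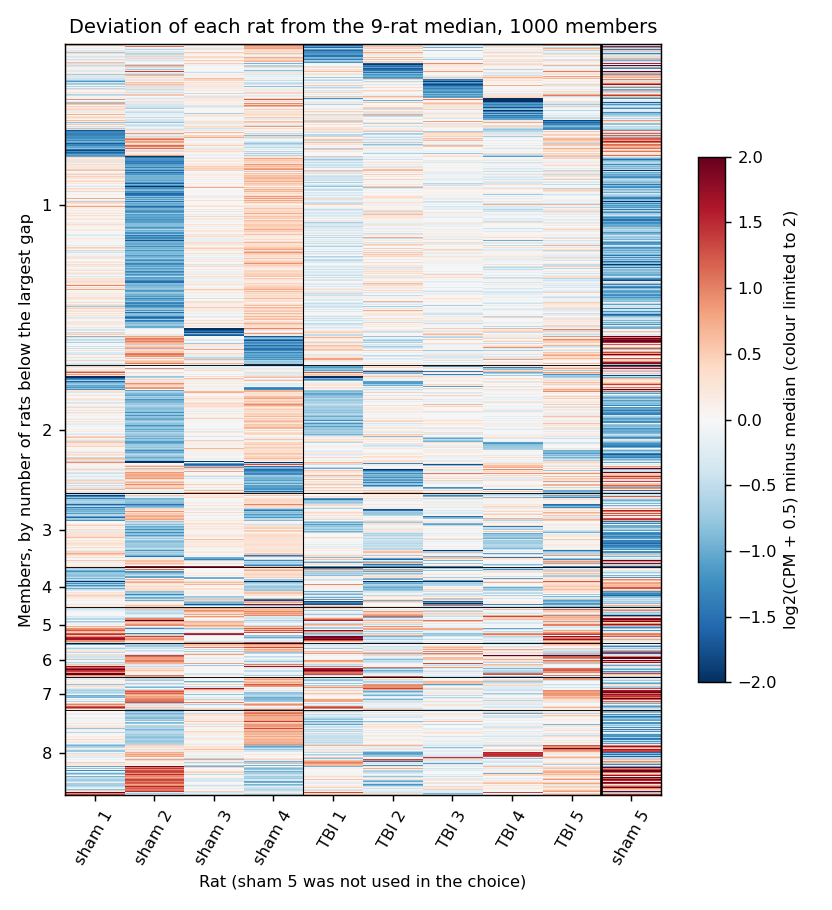
Deviation of log2(CPM + 0.5) from the 9-rat median for all 1000 members (rows, ordered by the number of rats below the widest gap) in the 10 rats (columns). Blue is low and red is high, limited to 2 log2 units, and the block of 229 rows with sham rat 2 alone low is the largest, with sham rat 5, set apart at the right, also blue there.

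The library of sham rat 5 was not used for the selection, but the sham rats it is compared with here were, and their spread, above all that of sham rat 2, had chosen the members. Part of the following difference is therefore given by the choice. Sham rat 5 deviated from the mean of the other 4 sham rats by a median of 0.80 log2 units in members, compared with 0.43 in eligible regions, and by at least 1 unit in 35.4% and 9.10%, respectively. With loess correction the medians were 0.51 and 0.34, and the shares 23.6% and 5.17%. The first 100 members had a median of 0.54 on the corrected scale, and 32 of the 100 deviated by at least 1 unit. These are values of 1 library and have no replicate error. In the 94 members with a gap of at least 1 log2 unit, sham rat 5 was nearer to the higher rats in 70 (74.5%) and nearer to the lower rats in 24, and it lay within the gap in 47. Most of the 94 had 1 low rat against 8 higher ones, and in these 65 it was nearer to the higher rats in 50. With 2 to 7 low rats it was nearer to the higher ones in 18 of 23, and with 1 high rat in 2 of 6.

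The members were distributed over all 20 autosomes, from 2.81 per 1000 eligible regions on chromosome 4 to 5.31 on chromosome 17. Their lengths were similar to those of eligible regions, with medians of 953 bp and 922 bp, and they had 76 other regions within 100 kb compared with 82. The most heavily tagged and the longest regions were represented among them. Of the 148 eligible regions with a mean of at least 50 CPM, 27 (18.2%) were members, and of the 3544 regions of at least 3 kb, 30 (0.847%) were, compared with 0.416% of all eligible regions.

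Part of the members lay close together. Another member was within 100 kb of 230 members (23.0%), whereas 10.1% of the other eligible regions were within 100 kb of a member. The 230 formed 86 clusters, of which 67 were pairs, and the 19 clusters of at least 3 held 96 members. The other 770 members had none within this distance. Neighbouring regions are not independent, so these counts are given without a test.

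The largest cluster lay on chromosome 17 from 53433105 to 53721589, a span of 288 kb, and held 21 members among 33 eligible regions. TBI rat 3 was lowest, with a median deviation of -1.14 over the 21 members, and sham rats 1 and 4 and TBI rat 1 followed with -0.42, -0.39 and -0.31. The 12 eligible regions between the members had -0.29 in TBI rat 3, and the eligible regions within 400 kb on either side had -0.02 and -0.07. Beyond the cluster this rat was thus close to the others. The leading member, from 53433105 to 53439210, was 6105 bp long. Sham rats 1 to 5 had 7.21, 12.5, 13.5, 9.24 and 20.2 CPM in it and TBI rats 1 to 5 had 7.13, 13.58, 3.32, 11.2 and 9.79 CPM, so that TBI rat 3 was lowest, TBI rat 1 was just under the lowest sham rat and the other TBI rats were within the range of the sham rats. The log2 values of the 21 members correlated over the 9 rats at a median pairwise r of 0.84.

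A pair of clusters on chromosome 16 had a different carrier. The first, from 27215453 to 27329881, held 5 members among 24 eligible regions, and the second, from 27785704 to 27941728, held 8 among 32. Sham rat 4 was low in both, with medians of -0.78 and -0.83, and sham rat 2 was high, with 0.60 and 0.70. Sham rat 5 was higher still, with 1.09 and 1.37. Between the clusters lay 456 kb with 85 eligible regions and no member, in which sham rat 4 had a median of -0.36 and sham rat 2 of 0.25. Beyond the outer ends the medians of sham rat 4 were -0.12 and -0.08. Along 726 kb these 2 rats thus deviated in opposite directions, and most so in the members. The leading member of the second cluster, 5196 bp long from 27798510 to 27803706, had 8.38, 19.2, 8.99, 4.96 and 39.5 CPM in sham rats 1 to 5 and between 8.59 and 12.5 CPM in TBI rats. All TBI rats lay between sham rat 4 and sham rat 2.

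**Figure D5:**
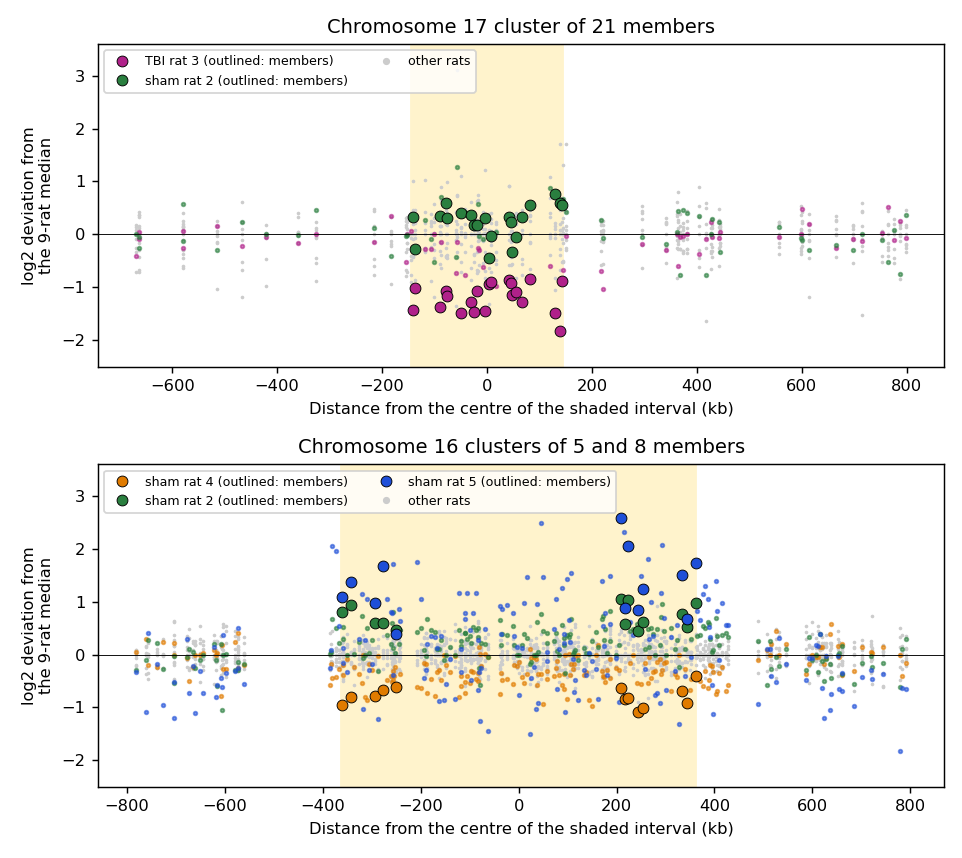
Deviation of log2(CPM + 0.5) from the 9-rat median against the distance from the centre of the cluster in kb, for eligible regions of chromosome 17 (top) and chromosome 16 (bottom), with the named rats coloured and members outlined. TBI rat 3 (median -1.14 in members) is low within the shaded 288 kb, and sham rat 4 is low along the shaded 726 kb of chromosome 16.

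On chromosome 13 the deviation was upwards. The cluster from 86911110 to 86962918 held 4 members of 7 eligible regions, with a median of 2.24 in sham rat 1, 1.23 in TBI rat 1 and 1.21 in TBI rat 4. Its leading member, from 86956529 to 86962918, had 268, 61.2, 48.1, 55.6 and 158 CPM in sham rats 1 to 5 and 136, 49.3, 54.4, 135 and 65.4 CPM in TBI rats 1 to 5. The rats took distinct levels, with sham rat 1 highest, sham rat 5, TBI rat 1 and TBI rat 4 between 135 and 158 CPM, and the other 6 rats between 48.1 and 65.4 CPM. In the neighbour from 86952948 to 86954707 the same rats stood out, with 22.9 CPM in sham rat 1, 10.8 in TBI rat 1 and 10.5 in TBI rat 4, and with sham rat 5 at 6.30 CPM above the other 6 at 3.03 to 4.53 CPM. The member from 86911110 to 86912868 had the same order, with 17.8 CPM in sham rat 1. The member from 86934551 to 86935993 did not show distinct levels. Sham rat 1 had 6.84 CPM and TBI rats 1 and 4 had 5.91 and 5.41 CPM there, close to TBI rat 3 (5.08) and sham rat 4 (4.86). Sham rat 5 was low in it, with 2.42 CPM. Eligible regions within 400 kb on either side of the cluster had medians of -0.05 and 0.00 in sham rat 1.

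On chromosome 1 the 5 members of the cluster from 75021349 to 75184683 were lowest in TBI rat 4, with a median of -1.09, and highest in sham rats 1 and 4, with 0.56 and 0.54. All 5 eligible regions of this span were members. In its leading member, from 75121222 to 75122489, sham rats 1 to 5 had 28.5, 13.59, 17.6, 31.7 and 10.3 CPM and TBI rats 1 to 5 had 13.7, 15.9, 24.9, 7.25 and 12.3 CPM. A further 4 members up to position 76064443 followed, 2 of them the members named above in which TBI rat 4 was nearly without tags. Over all 9 the median of TBI rat 4 was -1.14, compared with -0.08 in the 45 other eligible regions of this stretch. The cluster of chromosome 15 from 30179589 to 30307528 (5 members of 8 eligible) was low in TBI rats 1, 3 and 5 and sham rat 3, with -1.57, -1.24, -0.76 and -0.74. Sham rat 5, outside the selection, had -0.69 there. In the leading member of this cluster, from 30286144 to 30287365, sham rats 1 to 5 had 4.63, 5.85, 2.59, 7.73 and 2.69 CPM. TBI rats 1 to 5 had 0.937, 7.35, 1.11, 5.04 and 2.07 CPM in it.

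On chromosome 14 the members from 4309696 to 4382190 (5 of 8 eligible) were low in sham rats 4 and 1, with -0.75 and -0.55, and high in TBI rat 5, with 0.59. Sham rat 5, outside the selection, had 1.47 there. In the member from 4541552 to 4546618, beyond this cluster, sham rat 5 had 46.5 CPM and the other rats between 4.23 and 11.6 CPM. The cluster on chromosome 17 from 62915228 to 63023105 was unlike the other 7 in that its 4 members did not move together, with a median pairwise r of 0.17 compared with 0.79 to 0.95. Its leading member, only 271 bp long from 62920660 to 62920931, belonged to the 19 alike members, with 23.8 CPM in sham rat 1, 23.5 CPM in TBI rat 1 and 4.81 to 16.2 CPM in the other rats.

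The members were then compared between TBI and sham rats. Their selection had removed the group means but had favoured a wide spread within groups. These tests weigh a difference against a spread drawn in part from other regions, so that p-values of members can be too small. Shares of all regions are therefore no like-for-like comparison for the members. All 1000 passed the filter of the test (a tag sum of at least 117 over 10 rats), and 358249 regions were tested. At an unadjusted p under 0.01, the threshold of the study, 7 members (0.7%) differed between the groups, compared with 0.266% of all regions tested. Of these, 2 had more tags in TBI rats (background 0.098%) and 5 had fewer (background 0.168%). At an unadjusted p under 0.05 there were 38 members, compared with 2.45% of all regions. After Benjamini-Hochberg adjustment over all regions, the quasi-likelihood test of edgeR gave 0 members with an adjusted p under 0.05 (background 0%, 0 of 358249 regions). The exact test called 12 members at an unadjusted p under 0.01 (background 0.371%) and the likelihood ratio test called 12 (background 0.424%). Neither gave a member with an adjusted p under 0.05, which 0.00112% of all regions reached in both. In no member did the CPM values of the groups fail to overlap, whereas 0.567% of all regions had groups without overlap. A choice by wide spread within groups favours overlap, so this contrast is largely given by the selection. The median log2 fold change was -0.08 in members and -0.02 over all regions, and the median absolute value was 0.16 and 0.15. The number of called members moved when 1 rat was left out. It was 38 without sham rat 4 (0.727% of all regions then called), 22 without sham rat 1 (0.433%) and 14 without TBI rat 5 (0.263%). It was 12 without sham rat 3 (0.306%) and 4 without TBI rat 1 (0.199%). The spread of these rats had helped to choose the members, so leaving 1 of them out can narrow its group by construction.

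Without sham rat 5, 19 members passed an unadjusted p under 0.01, compared with 0.792% of 358615 regions. Of these, 6 were higher in TBI rats (background 0.397%) and 13 were lower (background 0.396%). In 1 member the groups did not overlap (background 1.54%), and 1 member reached an adjusted p under 0.05 (background 0.0039%). The latter was the region on chromosome 17 from 72209068 to 72210463. Its sham rats 1 to 5 had 2.65, 8.08, 7.35, 3.21 and 0.269 CPM, and its TBI rats 1 to 5 had 0.576, 0.525, 0.508, 2.00 and 0.471 CPM. Sham rat 5, with 5 tags, was below every TBI rat, TBI rat 4 was above the other TBI rats, and the other 4 sham rats were above all TBI rats. The log2 fold change was -2.41 ± 0.54 (SE) with 10 rats (edgeR's quasi-likelihood test, adjusted p = 1) and -2.70 with 9 rats (adjusted p = 3.39e-05). A second called member of the same megabase, from 72496981 to 72499425, had 7.13, 17.7, 14.4, 6.95 and 11.1 CPM in sham rats and 6.77, 5.44, 6.23, 8.46 and 5.98 CPM in TBI rats. Its sham rats 2 and 3 were again highest, and its log2 fold change was -0.85 ± 0.22 (SE, adjusted p = 1 by edgeR's quasi-likelihood test). These were the only 2 members among the 90 eligible regions between positions 72 and 73 Mb.

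The other members called as lower in TBI rats were on chromosomes 13 and 2. On chromosome 13 from 97833881 to 97834614 the sham rats had 3.68, 5.78, 8.41, 10.8 and 15.2 CPM and the TBI rats 6.12, 3.15, 2.81, 2.15 and 4.75 CPM. The means were 8.78 ± 4.49 and 3.799 ± 1.61 CPM (SD, n = 5 each), and sham rats 1 and 2 lay within the range of the TBI rats. On chromosome 2 from 118820588 to 118822005 the means were 3.83 ± 2.23 and 2.11 ± 1.07 CPM (SD, n = 5 each), and TBI rat 2 with 4.00 CPM was above 3 sham rats. Its call was lost when sham rats 3 or 4 or TBI rats 1, 3, 4 or 5 were left out, with log2 fold changes from -0.94 to -0.59. With all rats it was also lost under the robust quasi-likelihood test, under the DESeq2 Wald test and without the tag filter. The called members of chromosomes 17 and 13 stayed called, in the same direction, under every alternative that tested them.

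The longest member, 11302 bp on chromosome 2 from 1281830 to 1293132, was called because of 1 library. Sham rats 1 to 4 had 2.13, 6.41, 2.69 and 1.90 CPM, sham rat 5 had 38.0 CPM, and TBI rats had 3.89, 2.43, 2.31, 2.94 and 3.95 CPM. The log2 fold change of -1.87 ± 0.65 (SE, edgeR's quasi-likelihood test, adjusted p = 1) became -0.07 without sham rat 5 (adjusted p = 0.999) and was then no longer called. Its call was also lost when any 1 of the TBI rats was left out, with log2 fold changes from -1.99 to -1.77, close to that of all rats. With all rats, the robust quasi-likelihood test, the DESeq2 Wald test and scaling by total tags alone did not call it either.

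Among members higher in TBI rats, the region from 30128306 to 30130024 on chromosome 18 ranked first by p-value. Its sham rats had 3.53, 4.25, 4.56, 4.38 and 2.91 CPM and its TBI rats 6.77, 4.33, 12.5, 3.62 and 7.44 CPM. TBI rats 2 and 4 were within the range of the sham rats and TBI rats 1, 3 and 5 above it. The log2 fold change was 0.78 ± 0.25 (SE, adjusted p = 1 by edgeR's quasi-likelihood test). It was 0.45 without TBI rat 3 and then no longer called. The call was also lost without sham rats 1 or 2 and without TBI rats 1 or 5, although the log2 fold change stayed between 0.74 and 0.79. The second, on chromosome 14 from 4649616 to 4650521, lay outside the cluster of chromosome 14 described above. Sham rats 1 and 4 were low and sham rat 5 was high in that cluster, unlike in this member. Its sham rats had 7.87, 3.90, 7.98, 7.88 and 4.20 CPM and its TBI rats 11.3, 7.35, 6.97, 13.1 and 13.1 CPM, with a log2 fold change of 0.65. It was no longer past the threshold without sham rat 2 or without TBI rats 1, 4 or 5, with log2 fold changes from 0.52 to 0.62 in these fits. Without the tag filter it was not called either, with a log2 fold change of 0.66.

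The next 3 members by p-value among those with a positive fold change were not called (adjusted p = 1 each by edgeR's quasi-likelihood test). Their log2 fold changes were 0.73 on chromosome 14 (15910217 to 15911106), 0.91 on chromosome 5 (139523927 to 139524360) and 0.58 on chromosome 19 (14185812 to 14187250). In the region of chromosome 5, sham rats had between 0.161 and 2.16 CPM and TBI rats between 0.753 and 3.65 CPM. The 10 members with the highest index had log2 fold changes between -0.71 and 0.22, none with an unadjusted p under 0.01 in the fit of all 10 rats. In the fit without sham rat 5 the region of chromosome 20 in which TBI rat 4 had 2 tags was called with a log2 fold change of -0.90 (adjusted p = 0.996, quasi-likelihood test of edgeR). There the other 4 TBI rats lay between 4.19 and 6.95 CPM and the other 4 sham rats between 5.62 and 13.2 CPM.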

How the data were processed

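Fragmented DNA of each rat was enriched on a methyl-binding protein, and single reads of 36 bases were obtained. According to their methods, the authors used BWA and the RN4 assembly for alignment, MACS for calling regions between pairs of samples and BEDTools for merging them. The deposited values are tag counts, unscaled. All 10 columns were matched to rats by number (0 others were present). Positions are printed as deposited, and whether they count from 0 or 1 is not given in the sources used here. Sequence and gene annotation of this assembly were not used here.

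The members, lists and tests were chosen with earlier results of these data known. Tag counts were scaled by library totals for CPM. Members were chained into clusters where the next started within 100 kb. Named are the 10 members of highest index, the 5 of smallest p in each direction, the leading member of each of the 8 largest clusters and the 2 regions on either side of the limit. Groups were compared with edgeR 4.0.16 in R 4.3.3 (TMM, trended dispersion, glmQLFit, glmQLFTest) over regions at or above the 50th percentile of the tag sum, with Benjamini-Hochberg adjustment over all of them. Standard errors were derived from the F statistic. The selection and the test were tested on simulated data. Alternatives were other scalings, filters and tests (DESeq2 1.42.0 among them), pseudocounts, bins and distances, and leaving out each rat. Python 3.11.15, numpy 2.4.6 and pandas 2.3.3 were used. Tags carry counting error, from 1 tag in the weakest rat of a named member to 36758.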

Additional observations from a re-analysis of the deposited data

Results flagged for a closer look

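In 4 of 56 sets of 5 log2(CPM + 0.5) values, each set the sham or the TBI rats in a named member, 1 rat stood far from the others. Chance gives about 2.8 of 56 in regions not chosen for spread, and the members were chosen for their spread within groups, so that this number is no comparison for them. TBI rat 4 had 0.105 CPM in the region on chromosome 20 from 19187276 to 19188269, where the other TBI rats had 4.19 to 6.95 CPM. The same rat had 2.00 CPM in the region on chromosome 17 from 72209068 to 72210463, above the other TBI rats at 0.471 to 0.576 CPM. TBI rat 3 had 3.46 CPM in the region on chromosome 19 from 14185812 to 14187250, where the others had 7.15 to 9.40 CPM. TBI rat 2 had 4.00 CPM in the region on chromosome 2 from 118820588 to 118822005, where the others had 1.37 to 1.84 CPM. On the CPM scale 3 sets stood out, the latter region on chromosome 2, that of chromosome 17 and, in addition, the region on chromosome 2 from 1281830 to 1293132, where sham rat 5 had 38.0 CPM and the other sham rats 1.90 to 6.41 CPM.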

How the results depend on the processing

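No paired analysis was possible because no TBI rat carries the number of a sham rat. The number of members called (7, with 2 higher and 5 lower in TBI rats) was 12 (10 lower) by the exact test and 12 (10 lower) by the likelihood ratio test. At p under 0.05 it was 38 (5 higher, 33 lower), but 12 with the robust form and 13 by the DESeq2 Wald test. The exact test gave 48 there and the likelihood ratio test 50. At p under 0.01, 1 was higher without the tag filter. The lower members numbered 8 with loess offsets, 3 with the robust form and 3 by the DESeq2 Wald test. Leaving out 1 rat gave 4 to 38 called members, 0 to 7 higher, 4 to 31 lower and 0 to 1 with an adjusted p under 0.05. Every rat but sham rat 5 had helped to choose the members, so leaving 1 of these out can narrow its group by construction. Settings chosen after seeing the data left out sham rat 5 under the exact test (20 called against 0.863% of all regions, 5 higher, 15 lower, 1 adjusted) and under loess offsets (21 called against 0.868%, 8 higher, 13 lower, 1 adjusted). With sham rats 2 and 5 both left out there were 264 (50 higher, 214 lower, 5 adjusted), against 2.69% of all regions called and 0.0134% adjusted, but the spread of sham rat 2 had chosen many members, so that leaving it out narrows their sham group by construction. In this setting the region on chromosome 2 from 1281830 to 1293132 reversed, to a log2 fold change of 0.44. Of the 228 values of named members under the alternatives, 192 kept their direction and side of the threshold, 31 were weaker, 4 stronger and 1 reversed.

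Of the 1000 members, 313 were kept when all 10 rats were used for the choice and 536 to 849 when 1 of the 9 was left out, the fewest without sham rat 2. Without it 96 of the first 100 were kept, and with loess correction 100 of 100. Between 708 and 947 were kept under the other settings. Members within 100 kb of another (230) numbered 99 of the top 500 and 582 of the top 2000, and 116 within 20 kb and 460 within 500 kb. Sham rat 5 was nearer the higher rats in 74.5%, and in 85.1% with loess correction. Causes of these shifts were not tested. Depth limits members with few tags in a rat, where 1 tag moves the log2 value, and methylation is not told apart from copies or sequence.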
